A study of Homo sapiens with 24 samples.

Results

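SELENOP and 9 further selenoprotein genes with antioxidant or endoplasmic reticulum functions (GPX1, GPX2, GPX3, GPX4, TXNRD1, TXNRD2, SELENOW, SELENOT and SELENOK) were examined for trimethylation of lysine 4 of histone H3 (H3K4me3), the histone mark of active promoters. They are 10 of the 20020 protein-coding genes of the annotation. The list was set by name, and it was built around SELENOP, which had been selected on the change of its H3K4me3 between senescent and non-senescent cells, in the authors' own comparison, among promoters with a strong mark. Its having a region and its mean normalised count were thus part of the choice and are given as a description. The values of the authors' comparison are not used or given here. For each gene, every H3K4me3 region that came within 2 kb of an annotated transcription start site of that gene was listed, and the one with the highest mean normalised count served as its main region.

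H3K4me3 was profiled by MINT-ChIP, a multiplexed chromatin immunoprecipitation method in which barcoded samples are pooled before the antibody is added. The cells were EndoC-βH3, a human beta-like line of fetal pancreatic origin that proliferates through 2 transgenes, hTERT and SV40 Large T. It carries a CreER recombinase that excises these transgenes when 4-hydroxytamoxifen (4-OHT) is added. There were 4 non-senescent control samples and 4 senescent samples of the mark, with 500000 cells in each. The senescent cells had been treated with 4-OHT for 3 weeks, at a dose that the labels give as 1 mM and the methods give with the same figure in μM. All cells are labelled as WT, come from 1 cell line and were grown in medium with 6.7 ng/mL sodium selenite, the selenium source of the culture, so that no group without added selenium was measured. The deposited values hold 1 mean normalised count per region over all 8 samples, both states together, and none per sample. Depth and the spread between replicates can therefore not be given, no difference between the states was computed, and every comparison between genes is a description without a test. In bulk chromatin a larger share of marked cells and more of the mark per cell cannot be told apart.

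The table held 97545 regions. Of the 20020 genes, 15085 (75.3%) had a region within 2 kb of a start site (genes with a region). Their main regions had a median mean normalised count of 49.2 and a median width of 2492 bp. Since wider regions collect more reads, levels are compared between genes as mean normalised counts per kb of region, of which the median was 19.0 and the quartiles 12.3 and 26.8. Percentiles refer to the 15085 genes with a region.

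The promoters of beta cell genes carried the mark. All 13 beta cell markers had a region, with a median of 25.4 mean normalised counts per kb and a median mean normalised count of 259. The lowest level among them was that of IAPP, at 7.56 per kb, and INS had 14.0 per kb in a region shared with IGF2 and INS-IGF2. Of 13 markers of other islet, exocrine, liver, blood, endothelial and stromal cells, 8 had a region, and PPY, ALB, PTPRC and CDH5 were among those without one. Their median was 6.79 per kb, and CD68, whose region is also that of MPDU1, was the 1 marker above the median of all genes, at 31.9 per kb.

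Selenoproteins contain selenocysteine, an amino acid that is inserted at UGA codons with the help of a structure in the 3′ untranslated region of the messenger RNA. SELENOP is the secreted plasma protein that carries selenium between tissues and is made mainly by the liver. The glutathione peroxidases reduce peroxides with glutathione, and the thioredoxin reductases keep thioredoxin reduced. The members of both families in the list built around SELENOP use selenocysteine in their active site. Pancreatic beta cells are known for low levels of several peroxide-removing enzymes.

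The DNA before the start sites differed widely among these genes, and 6 promoters that span this range are shown. They include SELENOP, the gene without a region (GPX4), the lowest region (GPX2), one of the highest levels (SELENOK) and both RefSeq start sites of TXNRD1. Each is the 250 bases before the RefSeq start site, 5′ to 3′ on the gene's own strand, with the CG dinucleotides in capitals (GRCh38.p14).
SELENOP, chr5:42811893-42812142, minus strand: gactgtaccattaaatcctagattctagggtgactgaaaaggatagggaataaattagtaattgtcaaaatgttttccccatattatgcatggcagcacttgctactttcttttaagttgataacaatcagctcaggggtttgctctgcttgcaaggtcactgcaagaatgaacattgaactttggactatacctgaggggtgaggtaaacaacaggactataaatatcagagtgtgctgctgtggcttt
GPX2, chr14:64942746-64942995, minus strand: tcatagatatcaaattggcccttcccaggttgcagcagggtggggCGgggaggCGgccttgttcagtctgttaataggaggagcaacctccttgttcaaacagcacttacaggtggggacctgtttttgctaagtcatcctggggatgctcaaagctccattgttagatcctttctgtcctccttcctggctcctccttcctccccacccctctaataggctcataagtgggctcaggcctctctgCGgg
GPX4, chr19:1103744-1103993, plus strand: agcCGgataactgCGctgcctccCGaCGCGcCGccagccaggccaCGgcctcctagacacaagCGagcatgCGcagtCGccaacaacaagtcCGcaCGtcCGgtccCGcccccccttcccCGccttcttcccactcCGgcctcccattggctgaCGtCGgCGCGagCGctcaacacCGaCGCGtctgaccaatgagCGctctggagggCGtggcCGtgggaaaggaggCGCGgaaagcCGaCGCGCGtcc
SELENOK, chr3:53891860-53892109, minus strand: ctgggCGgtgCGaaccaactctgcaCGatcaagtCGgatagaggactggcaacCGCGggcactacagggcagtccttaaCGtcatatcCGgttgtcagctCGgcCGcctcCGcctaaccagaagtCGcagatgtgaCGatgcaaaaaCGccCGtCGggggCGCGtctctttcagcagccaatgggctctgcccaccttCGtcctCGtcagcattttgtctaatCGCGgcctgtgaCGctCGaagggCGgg
TXNRD1, first start site, chr12:104215529-104215778, plus strand: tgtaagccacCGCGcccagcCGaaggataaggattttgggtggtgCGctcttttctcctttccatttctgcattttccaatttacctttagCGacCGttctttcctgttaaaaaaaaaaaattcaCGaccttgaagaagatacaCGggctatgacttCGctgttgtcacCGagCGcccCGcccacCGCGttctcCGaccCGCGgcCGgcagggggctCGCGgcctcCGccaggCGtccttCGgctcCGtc
TXNRD1, downstream start site, chr12:104286782-104287031, plus strand: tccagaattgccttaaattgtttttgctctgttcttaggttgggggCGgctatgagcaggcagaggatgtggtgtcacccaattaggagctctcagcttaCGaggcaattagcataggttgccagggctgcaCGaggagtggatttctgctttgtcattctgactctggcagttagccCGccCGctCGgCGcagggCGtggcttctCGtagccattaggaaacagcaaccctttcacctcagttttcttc

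The SELENOP promoter held 0 CG dinucleotides in its 250 bases and had a GC content of 39.6%. Over 21613 RefSeq promoters of 15345 protein-coding genes the median was 17 CG dinucleotides and the quartiles were 5 and 26, which put SELENOP at percentile 1.59. GPX4, the gene without an H3K4me3 region, stood at the other end with 33 CG dinucleotides, at percentile 90.5. SELENOK had 25 and the first TXNRD1 start site 24, while the downstream TXNRD1 start site had 9 and GPX2 had 3. The promoters not printed held 14 (SELENOT) to 23 (TXNRD2) CG dinucleotides at their canonical start sites.

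Short motifs were searched on both strands of the same 250 bases, in 15 RefSeq promoters of the 10 genes. Positions are the distance from the start site to the first base of the match, read along the gene's own strand, negative before it. The SELENOP promoter held TATAAA, the TATA box, at −31 and GTAAACA, a core sequence bound by FOXO factors, at −45. TATAAA was in 8.99% of all promoters, GTAAACA in 2.47% and both in 0.379% (82 promoters). Among the other promoters of the 10 genes, TATAAA was found once more, on the strand opposite to the gene at an alternative TXNRD2 start site (−120). GTAAACA was in none of them. The core of the antioxidant response element, TGACNNNGC, the site of NRF2, was in 11.2% of all promoters and in 5 of the 15, namely those of SELENOP, GPX2, SELENOK and both of TXNRD1. It lay at −99 in SELENOP and −122 in GPX2, in both on the strand opposite to the gene, and at −117 in SELENOK on the gene's strand. In TXNRD1 it lay at −99 on the gene's strand before the first start site and at −102 on the opposite strand before the downstream one. GGGCGG, the GC box, was in 54.2% of all promoters and in 11 of the 15, and CCAAT in 33.0% and in 8 of the 15. The SELENOP promoter held neither the GC box nor CCAAT. A match is a run of letters and says nothing of binding in these cells.

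An H3K4me3 region lay at 9 of the 10 genes, beside 75.3% of all 20020 genes, and having a region was part of the choice of SELENOP. A total of 13 regions fell in the windows of the 10 genes. There was 1 each at SELENOP, GPX1, GPX3, SELENOT and SELENOK and 2 each at GPX2, TXNRD1, TXNRD2 and SELENOW. The order of the levels ran from TXNRD1 at 32.1 mean normalised counts per kb through SELENOK, SELENOT, TXNRD2, SELENOP, SELENOW, GPX3 and GPX1 to GPX2 at 6.58, a ratio of 4.88 between the ends. The median was 14.5 per kb, which is SELENOP itself, at percentile 32.5. TXNRD1, SELENOK and SELENOT lay above the median of all genes with a region and the other 6 below it. By the mean normalised count of the whole region, not divided by width, 5 of the 9 lay above the median of all genes. Without values per sample, it cannot be said which neighbours in this order differ.

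**Figure D1:**
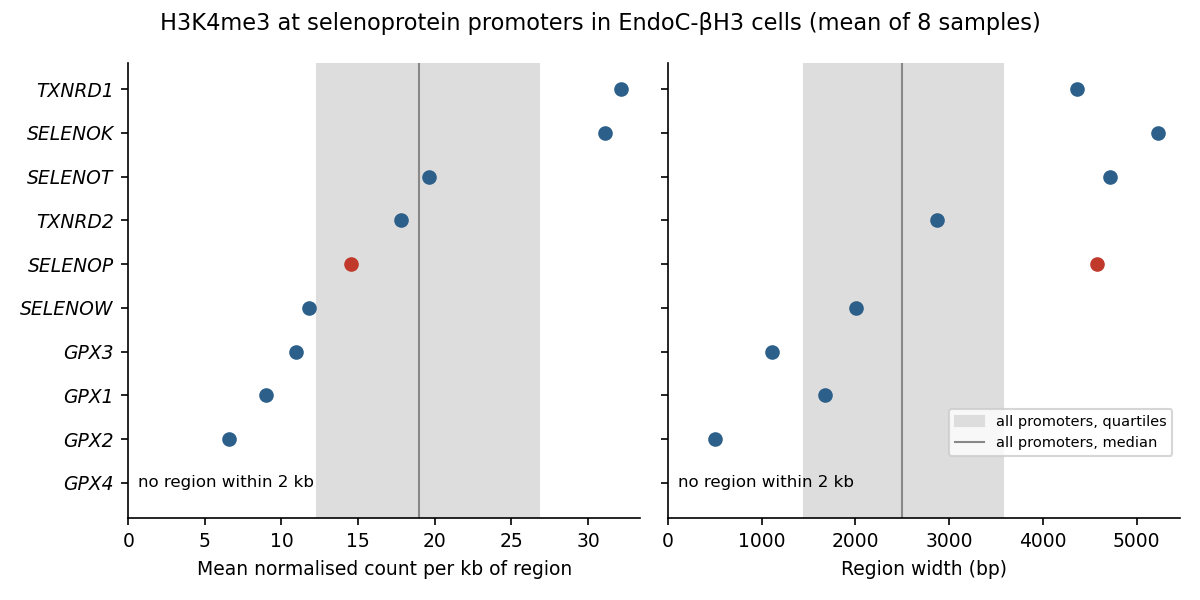
Level (left, mean normalised count per kb of region) and width (right, bp) of the main H3K4me3 region of each gene, as 1 mean over 8 samples, with SELENOP in red and the other genes in blue. The grey band spans the quartiles of all 15085 genes with a region and the grey line is their median. SELENOP, at 14.5 per kb, lies below the median level, whereas its width of 4581 bp lies beyond the upper quartile of 3570 bp. No error bars can be drawn.

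SELENOP (ENSG00000250722.6) lies on the minus strand of chromosome 5 at 42799880 to 42887392 (hg38), with its canonical start site at 42811892. Its main region ran from 42807667 to 42812248, a width of 4581 bp, which is 1.84 times the median of all genes and at percentile 87.8. The mean normalised count of the region, a value that the choice of the gene used, was 66.5 (percentile 62.5), and per kb it was 14.5. Thus the region was wide and of modest level along its length. Because SELENOP was chosen by a change between the states, a mean over both states may not describe either.

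The SELENOP region was also lopsided. Of its 4581 bp, 356 bp lay before the start site and 4225 bp after it, so that 92.2% lay downstream. Among the 9669 genes whose main region spans the canonical start site, the median downstream share was 60.4% and the quartiles were 47.9% and 71.7%, and SELENOP stood at percentile 98.1. The downstream part covered exon 1 and exon 2 of the 5 exons of the canonical transcript, with 273 bp in exons, while intron made up 86.3% of the region. Of the list built around SELENOP, GPX1, GPX3, TXNRD2, SELENOW, SELENOT and SELENOK also had a main region spanning the canonical start site. The highest downstream share among them was that of SELENOK, at 69.8% (percentile 70.6).

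The annotation gives SELENOP 8 start sites, and 6 of them lay within 2 kb of the region. The farthest upstream of the others, at 42887392, is the start of a longer transcript, and no region lay within 2 kb of it. Inside the gene span, 4 further regions were found between these starts, none of which met an exon. The strongest of the 4 ran from 42877780 to 42879308 with 22.7 mean normalised counts and 14.8 per kb, which is close to the per kb level of the promoter region. Next to it, a region from 42876080 to 42877175 had 17.8 mean normalised counts and 16.2 per kb. The remaining pair, from 42872890 to 42873597 and from 42881705 to 42882205, had 6.07 and 2.01 mean normalised counts. All 4 lie in introns and inside the span of an uncharacterised long non-coding RNA gene annotated on the opposite strand, so the gene they belong to cannot be told.

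**Figure D2:**
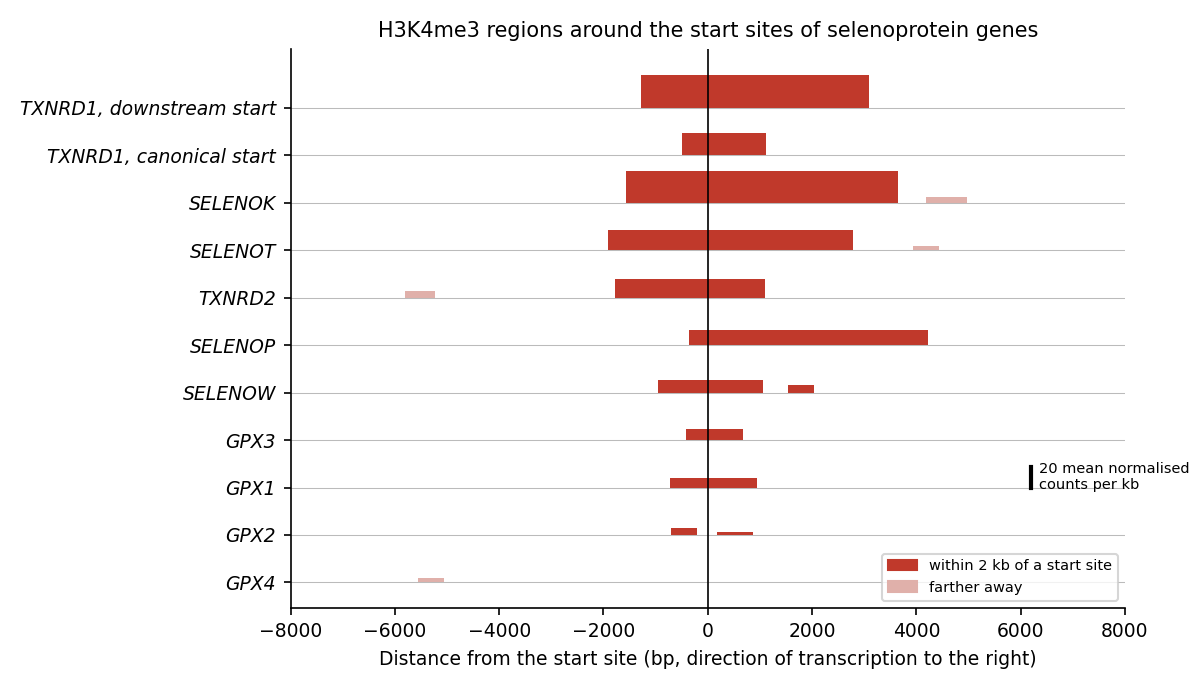
Position of the H3K4me3 regions within 8000 bp of the start site of each gene, turned so that transcription runs to the right (x axis, bp). The height of each block is its mean normalised count per kb, to the scale of the bar. Dark blocks lie within 2 kb of a start site of the gene and pale blocks do not. TXNRD1 is drawn at both of its RefSeq start sites. Other start sites of a gene beyond 8000 bp are not drawn. The SELENOP block reaches 4225 bp downstream and 356 bp upstream, and the sole block of GPX4 is pale.

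The glutathione peroxidases had low levels or no region. GPX1 (ENSG00000233276.9), the abundant cytosolic enzyme, had a region at chromosome 3, 49357406 to 49359084, with a mean normalised count of 15.1 and 8.98 per kb (percentile 13.6). It reached both exons of the gene. A start site of a second, unnamed protein-coding gene lies within 2 kb of the same region, so the mark cannot be assigned to GPX1 alone. GPX3 (ENSG00000211445.13), the peroxidase secreted into plasma, had a region at chromosome 5, 151020169 to 151021276, over exon 1, with 12.1 mean normalised counts and 11.0 per kb (percentile 20.1). GPX2 (ENSG00000176153.13), known as the gastrointestinal enzyme, had the lowest level. Its main region, at chromosome 14, 64942946 to 64943446, was 500 bp wide with 3.29 mean normalised counts and 6.58 per kb (percentile 6.76). That region lay wholly before the start site, reached up to 701 bp from it and met no exon, and a weaker one just inside the gene, 64941869 to 64942569, had 2.13 mean normalised counts. At 37.1% of all regions, a width of 500 bp was common in the table.

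GPX4 (ENSG00000167468.20), which reduces lipid peroxides in membranes and protects from ferroptosis, had no region within 2 kb of its 13 annotated start sites. The gene spans chromosome 19, 1103982 to 1106791. The nearest region in the table was 5049 bp from a start site, at 1098433 to 1098933, with a mean normalised count of 2.03. Regions appear in the table only where the authors' peak finding placed them, so the absence of a region is not a measured level of 0, and no level can be given for GPX4. Among genes of similar GC content at the start site it belonged to a minority, since 173 of 1999 (8.65%) had no region.

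The thioredoxin reductases had higher levels. TXNRD1 (ENSG00000198431.18), the cytosolic enzyme and a known NRF2 target, had the highest level of the 10 genes. Its main region, at chromosome 12, 104285756 to 104290122, was 4366 bp wide with a mean normalised count of 140 (percentile 91.1) and 32.1 per kb (percentile 86.2). This region does not lie at the canonical start site. It began 69977 bp downstream of it, over exon 4 of the canonical transcript, and 15 of the 19 annotated start sites lay within 2 kb of it. The canonical start site had a region of its own, from 104215294 to 104216899, with 35.4 mean normalised counts and 22.1 per kb. The downstream region was thus 1.46 times as high per kb and 3.96 times as high in mean normalised count.

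TXNRD2 (ENSG00000184470.21), the mitochondrial reductase, had its main region at chromosome 22, 19940717 to 19943588, with a mean normalised count of 51.1 and 17.8 per kb (percentile 45.2). TXNRD1 was 1.80 times as high per kb. The region cannot be assigned to TXNRD2 alone, and more of it lay upstream than downstream of the TXNRD2 start (38.3% downstream). A second region at an internal start site, 19898661 to 19899689, had 11.3 mean normalised counts and 11.0 per kb. Of the 21 annotated start sites of the gene, 7 lay within 2 kb of a region.

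SELENOW (ENSG00000178980.16), a small thioredoxin-like protein, had a region at chromosome 19, 47777756 to 47779763, with 23.6 mean normalised counts and 11.8 per kb (percentile 23.0). A second region, 47780235 to 47780735, lay just downstream with 3.46 mean normalised counts. SELENOT and SELENOK, both proteins of the endoplasmic reticulum membrane, had wide regions, with levels per kb near the median of all genes and above the upper quartile, respectively. For SELENOT (ENSG00000198843.14), a thioredoxin-like oxidoreductase, the region at chromosome 3, 150601406 to 150606116, was 4710 bp wide with 92.5 mean normalised counts and 19.6 per kb (percentile 52.4). A start site of SERP1 also lies within 2 kb of it. For SELENOK (ENSG00000113811.12), a component of the degradation machinery of the endoplasmic reticulum, the region at chromosome 3, 53888213 to 53893435, was the widest of the 10 genes at 5222 bp and had the highest mean normalised count, 162 (percentile 94.3), and 31.1 per kb (percentile 84.5). SELENOK was 2.14 times and TXNRD1 2.21 times as high per kb as SELENOP. Widths beyond the upper quartile of all genes were found at 4 genes, SELENOP, TXNRD1, SELENOT and SELENOK.

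GC content was considered because SELENOP and GPX4 differ so much in sequence. The GC content within 500 bp of the canonical start site was 39.2% for SELENOP, the lowest of the 10 genes, and 49.4% for GPX2. The others ranged from 57.0% (SELENOT) to 69.6% (GPX4). All 20020 genes were divided into 10 groups of similar GC content. In the lowest group, from 25.1% to 44.6%, 656 of 2021 genes (32.5%) had a region, and their median was 12.0 mean normalised counts per kb and 1436 bp in width. In the ninth group, that of GPX4, 91.3% had a region, with a median of 17.3 per kb. The median level did not rise steadily with GC content. It was highest in the third group, at 23.2 per kb, and was 16.4 per kb in the tenth.

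The place of SELENOP among genes of similar GC content is a description, since it was chosen among strongly marked promoters. Within its group it stood at percentile 58.4 for the level per kb, against 32.5 among all genes, at 79.7 for the mean normalised count and at 90.3 for width. The other genes shifted by less, although SELENOT went from just above the middle to below it. GPX2 stood at percentile 11.7, GPX3 at 14.0, GPX1 at 13.3, SELENOW at 26.3, SELENOT at 38.5, TXNRD2 at 46.6, SELENOK at 77.1 and TXNRD1 at 79.3 of its own group in level per kb. TXNRD1 was placed by the GC content of its canonical start site, which is not where its main region lies.

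**Figure D3:**
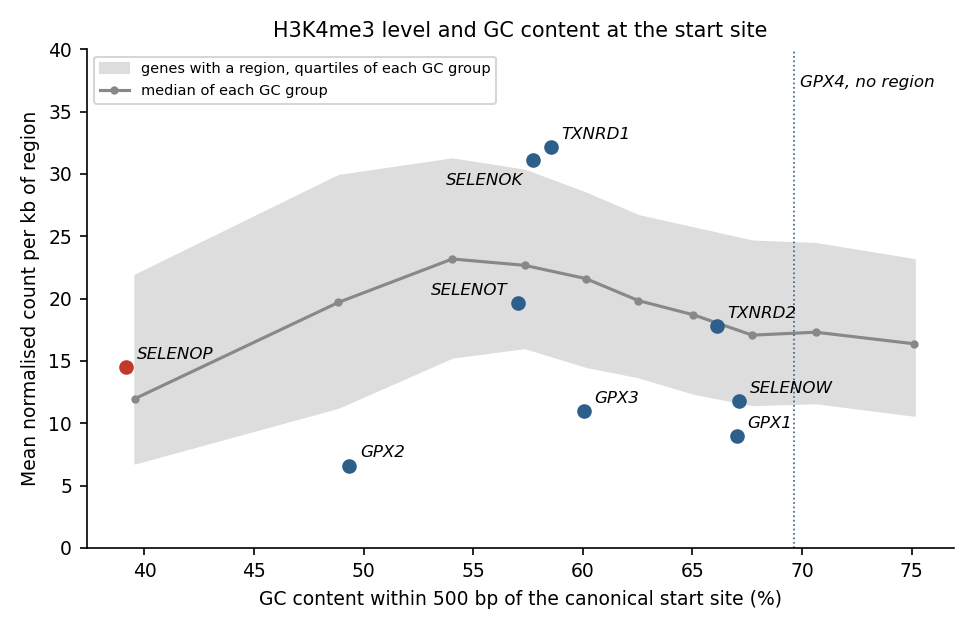
Level of the main H3K4me3 region (y axis, mean normalised count per kb) against GC content within 500 bp of the canonical start site (x axis, %), with SELENOP in red and the other genes in blue. The grey line joins the medians of 10 groups of all genes by GC content and the band spans their quartiles, among genes with a region. SELENOP, at 39.2% GC and 14.5 per kb, lies above the median of its group, 12.0 per kb. The dotted line marks GPX4 at 69.6%, which had no region.

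The remaining selenoprotein genes had a higher median level per kb, but not a higher median mean normalised count of the whole region, which was 50.6 against 51.1 for the 9 genes above. Of 15 of them, 12 had a region, beside 75.3% of all 20020 genes, and GPX6, DIO2 and DIO3 had none. GPX6 encodes an olfactory peroxidase, and DIO2 and DIO3 encode thyroid hormone deiodinases. The median of the 12 was 24.6 mean normalised counts per kb, against 14.5 for the 9 and 19.0 for all genes with a region, and 7 of the 12 lay above the latter. Of these 7, DIO1, SELENOF, SELENOH and SELENOI have a region shared with another gene. Their levels, and so the median of the 12, cannot be assigned to the selenoprotein genes alone. Some of the 9 have the same limit. The highest were SELENOS, at 61.4 per kb, a partner of SELENOK in endoplasmic reticulum degradation, and SELENOF, at 40.7 per kb, an endoplasmic reticulum protein of the folding machinery whose region is shared with HS2ST1. The lowest were SELENON, at 5.50 per kb, and SELENOM, at 12.1 per kb.

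The genes for selenium uptake, recycling and the insertion of selenocysteine all had a region, 11 of 11, beside 75.3% of all 20020 genes. The median of the 11 was 17.1 mean normalised counts per kb, and 5 lay above the median of all genes. The highest was SCLY, at 60.5 per kb, the lyase that frees selenium from selenocysteine. SEPHS1, a paralogue of the enzyme that makes selenophosphate, followed at 37.5 per kb. The lowest were SELENBP1, a selenium-binding protein, at 7.70 per kb and SEPSECS, which forms selenocysteine on its transfer RNA, at 12.0 per kb. The SEPSECS region is shared with PI4K2B. The receptors that take up SELENOP had 20.6 per kb (LRP8) and 16.9 per kb (LRP2).

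Of 14 genes for partners in glutathione and thioredoxin metabolism, 12 had a region, beside 75.3% of all genes, and GPX5 and GPX8 had none. The median of the 12 was 26.9 mean normalised counts per kb, and 10 of the 12 lay above the median of all genes. GSS, the glutathione synthetase, was highest at 59.4 per kb in a region shared with MYH7B, followed by KEAP1, the inhibitor of NRF2, at 45.9 per kb. GPX7, a peroxidase of the endoplasmic reticulum without selenocysteine, was lowest at 9.04 per kb.

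Among 12 enzymes that remove peroxide or superoxide, or respond to oxidants, without selenium, 11 had a region, beside 75.3% of all genes. SOD3 had none. The median was 18.3 mean normalised counts per kb, and 5 lay above the median of all genes. SOD2, the mitochondrial superoxide dismutase, had 31.3 per kb in a region shared with WTAP, and PRDX6 had 26.5 per kb. HMOX1, the haem oxygenase, had 6.98 per kb and PRDX4, the peroxiredoxin of the endoplasmic reticulum, 8.45 per kb. Catalase (CAT), the peroxisomal enzyme that splits hydrogen peroxide, had 22.2 per kb. Of the 46 genes with a region in these 4 lists, those nearest to SELENOP in level, measured as the log2 ratio of mean normalised counts per kb, were PRDX3 with 15.7 per kb (0.11 above), SELENOV with 13.1 (−0.14) and TXNRD3 with 13.1 (−0.15).

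**Figure D4:**
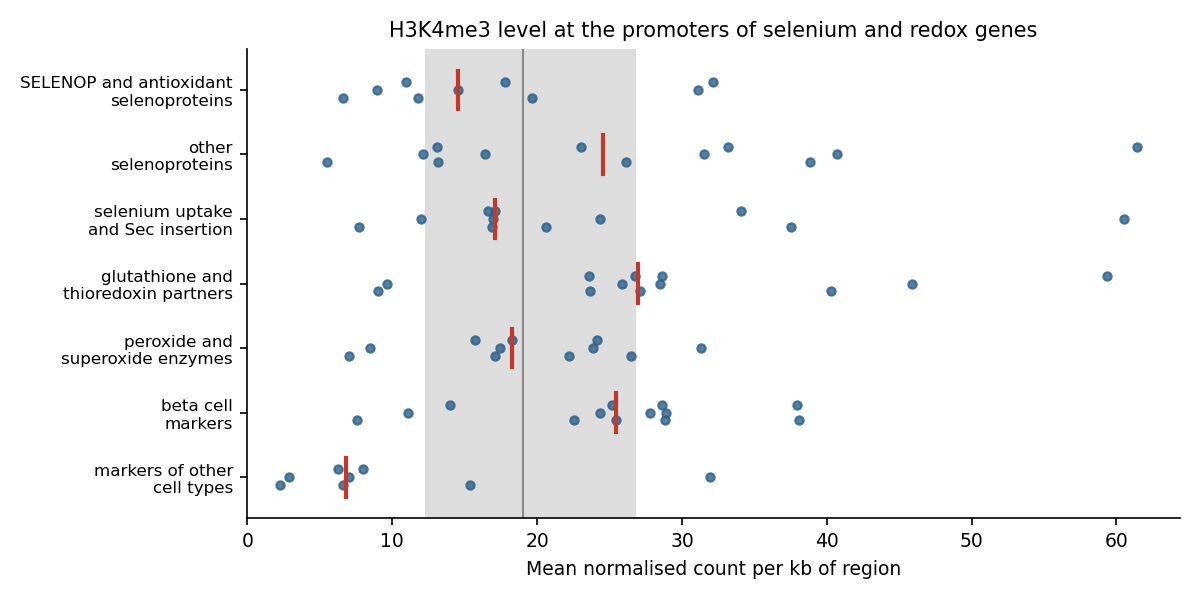
Level of the main H3K4me3 region (x axis, mean normalised count per kb) of every gene with a region in each list (rows). Each point is a gene, as 1 mean over 8 samples, the red bar is the median of its list, and the grey band and line are the quartiles and median of all 15085 genes with a region. The median of SELENOP and the antioxidant selenoproteins is 14.5, that of the other selenoproteins 24.6 and that of the glutathione and thioredoxin partners 26.9. Genes without a region are not drawn, and some regions are shared with another gene.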

How the data were processed

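H3K4me3 was analysed as the authors' mean over 8 samples, and the 16 H3K27me3 and H3K9me3 samples were not analysed here. Alignment by the authors was to hg38 with Bowtie2, followed by samtools and by HOMER findPeaks for H3K4me3 peaks. The signal used is the mean normalised count per region that the authors deposited from DESeq2. As it gives no value per sample, sequencing depth is unknown. How peaks were merged, reads counted and duplicates treated, and the terms of the model, are not given in the sources used here. The deposited table has 5 further columns of the authors' comparison of the states (log2 fold change, its standard error, Wald score, p-value and adjusted p-value), which were not used. The count test planned for a table with counts per sample was not made, because the table holds none, and no p-value was computed.

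Start sites were those of all transcripts that GENCODE release 44 lists for protein-coding genes, and a gene's main region was the one with the highest mean normalised count within 2 kb. Levels were divided by region width (end minus start, as deposited). Coordinates of regions are as deposited. GC content came from the hg38 sequence and promoter sequences from RefSeq (GRCh38.p14), where all 10 genes matched. Named are all 10 genes, the 2 highest and 2 lowest of each of 4 pathway lists by level, and the 3 genes of those lists nearest to SELENOP, apart from items that are not reported here. LRP8, LRP2, CAT, INS and the other genes named outside this rule, such as cell type markers, were named for their role or position. The genes and lists were chosen with earlier results of these data known. A total of 7 alternatives were planned and 1 was added after seeing the data. The linking of regions to genes was tested on simulated data. Software was Python 3.11.15, pandas 2.3.3, numpy 2.4.6, pysam 0.24.0 and matplotlib 3.10.9.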

Additional observations from a re-analysis of the deposited data

How the results depend on the processing

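The level of SELENOP, 14.5 mean normalised counts per kb, was identical under all 7 alternatives run for it. SELENOP had 1 region within 2 kb, which spans its canonical start site, so alternatives within that window could not change its level. The identical values are thus no sign of robustness. Of the 10 genes, 9 had a region under all of 6 alternatives except a minimum mean of 5, which left out GPX2 and gave 8. The median percentile of the genes was 32.5 as reported. It was 31.7 with a window of 1 kb, 33.7 with 5 kb, 32.3 with the canonical start site alone, 36.1 with the region nearest a start site, 34.2 with a minimum mean of 5, 38.3 with all regions in the window summed, and 32.3 with the start sites of protein-coding transcripts alone, an alternative chosen after seeing the data. Without division by width it was 51.5, because wide regions then rank higher, so the position of the list below the middle of all genes depends on the scaling. Of 47 values for the other genes under these alternatives, 45 were identical. GPX1, GPX3, SELENOT and SELENOK also had 1 region within 2 kb, so alternatives within that window could not change their levels. Their identical values are likewise no sign of robustness. TXNRD1 had 22.1 per kb with the canonical start site alone, and GPX2 had 3.04 per kb with the region nearest a start site. No paired analysis was possible because the results come from no test and each region has 1 mean over all samples. For the same reason, leaving out a replicate, the count tests and their filter on low counts were not run, and the error of any value is unknown.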
